A study of Homo sapiens with 8 samples.

Results

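The NQO1 locus is described here by the H3K27ac peaks in and around the gene. NQO1 (ENSG00000181019.13_8) lies at chr16:69740899-69760571 of GRCh37 (hg19), on the minus strand, with the 5′ end of its most upstream coding transcript at 69760571. The peaks of 6 lists were merged where they shared at least 1 base, and the merged regions that overlapped NQO1 or the 100 kb on either side of it (chr16:69640899-69860571) were kept. These were 11 of 49186 regions, built from 40 of 202238 peaks.

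The lists came from chromatin immunoprecipitation of acetylated histone H3 (H3K27ac) in A549, an established human lung adenocarcinoma line whose NRF2 is persistently active. Cells were harvested 48 h after transfection with control siRNA (3 libraries) or with NRF2 siRNA (3 libraries). Replicate 1 received NRF2 siRNA 28 and replicates 2 and 3 received NRF2 siRNA 30. All 6 libraries come from this one line, and the 2 DNA input samples were not analysed here.

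NQO1 encodes NAD(P)H quinone dehydrogenase 1, an enzyme that reduces quinones in a single step without forming a reactive semiquinone. It is among the best known targets of NRF2, a transcription factor that pairs with small MAF proteins on antioxidant response elements and recruits histone acetyltransferases. KEAP1 keeps NRF2 low in unstressed cells, and where KEAP1 fails, as in A549 cells, NRF2 accumulates and its targets are transcribed constantly. Acetylation of lysine 27 on histone H3 marks active promoters and enhancers.

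The stretch below carries the match to the antioxidant response element nearest to the NQO1 start, which the peaks over the start covered. It was read from the GRCh37 sequence on the minus strand, 5′ to 3′ in the direction of NQO1. Capitals mark the match to the core of the antioxidant response element (TGACNNNGC).
NQO1 upstream window, chr16:69760810-69761018: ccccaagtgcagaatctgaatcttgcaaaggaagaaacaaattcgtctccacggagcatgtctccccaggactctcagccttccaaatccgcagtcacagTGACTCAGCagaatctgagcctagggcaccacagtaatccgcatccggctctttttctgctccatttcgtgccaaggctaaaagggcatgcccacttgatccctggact

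The element in the upstream window lay 339 to 347 bp upstream of the NQO1 start. Its first 7 letters also match the AP-1 motif (TGANTCA), and it lies in the first exon of NQO1-DT, a divergent long noncoding RNA that begins 100 bp upstream of NQO1 on the other strand. The peaks of all 6 libraries covered it.

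These letters are common. Both strands were searched, and 32.1% of 19800 coding genes had the core of the antioxidant response element within 1000 bp upstream, 21.4% the AP-1 motif and 33.9% the motif of C/EBP proteins (TTGCNNAA), transcription factors that the study examined as partners of NRF2. NQO1 had 1 core, 1 AP-1 match and 0 C/EBP matches there. The whole start region, 10729 bp, held 2 cores, 3 AP-1 matches and 3 C/EBP matches, and 88.5%, 56.2% and 82.2% of coding genes had at least as many in a stretch of the same length and placement. The longer antioxidant response element consensus also matched 2 times in the start region, where 90.6% of genes had as many or more, and 1 time in the 1000 bp upstream, where 34.1% of genes had any. The start region was thus no richer in these motifs than most.

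The peak lists differed in length, from 27941 to 41571 peaks with control siRNA and from 23885 to 39108 with NRF2 siRNA, the shortest being NRF2 siRNA replicate 1. Fold enrichments of peaks were therefore placed within their own list and never compared between lists. A percentile of 99 means that 99% of the peaks of that library had a lower fold enrichment. NRF2 siRNA acts on the mRNA, so that H3K27ac is no check of the knockdown itself. NFE2L2, the gene of NRF2, was scored only at its most upstream coding start (chr2:178257484), and other starts of the gene were not examined. The region there was called in all 6 libraries with a score change of -0.04 (limma adjusted p = 0.944). Of 6 epithelial markers, 5 were called at their start in all 6 libraries, KRT8 and KRT18 by the same region. KRT19, a keratin gene, rose by 1.97 score units (limma adjusted p = 0.00677), in a region within 1 kb of its start but not over it. Of 11 markers of other cell types, 8 had no peak at their start in any library, PECAM1 was not found among the annotated coding starts, ALB was called in 2 NRF2 siRNA libraries, and CD14 was called in all 6. The part of these differences in the results below was not tested.

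The strongest region of the locus covered the NQO1 start. It spanned chr16:69753603-69764331 and held the start of NQO1 with coding and UTR sequence, and the start and first exon of NQO1-DT. Its peak stood at percentiles 99.3, 99.1 and 99.4 of the control lists, and at 95.1, 87.2 and 94.5 of the NRF2 siRNA lists. The groups did not overlap, and replicate 2 had the lowest value in both groups. By rank, the peak was number 208, 328 and 232 in the control lists and number 1179, 4471 and 2159 in the NRF2 siRNA lists. The region thus ranked high in every list, and higher in each control list than in any NRF2 siRNA list. The mean percentile was 99.3 ± 0.193 (SD, n = 3) with control siRNA and 92.3 ± 4.37 (SD, n = 3) with NRF2 siRNA, a difference of -7.00 (two-sided exact permutation p = 0.1, the smallest that 3 against 3 allows). The difference was -4.48 without NRF2 siRNA replicate 2 and -14.9 among peaks at a q-value of at most 1e-05. The fold enrichments that the authors' caller gave were 15.0, 15.1 and 20.0 with control siRNA and 7.91, 8.27 and 11.3 with NRF2 siRNA, given side by side only.

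For a test over all regions, the 32673 regions called in at least 3 of 6 libraries were ranked in each library and each rank was replaced by the matching quantile of a standard normal distribution, its score. One score unit is 1 SD of that distribution. The NQO1 start region scored 2.50, 2.33 and 2.45 with control siRNA, and 1.83, 1.12 and 1.51 with NRF2 siRNA. Every control score lay above every NRF2 siRNA score. The score was lower with NRF2 siRNA by 0.67 in pair 1, 1.20 in pair 2 and 0.94 in pair 3. The mean change of -0.94 (SE 0.232) had a limma unadjusted p of 0.00282 and an adjusted p of 0.0508 over all regions, just beyond the threshold of 0.05. In the fit that adds the replicate number as a block the region passed (limma adjusted p = 0.0223). It also passed within the siRNA 30 pairs alone (change -1.07, adjusted p = 0.0281) and without NRF2 siRNA replicate 1 (change -1.11, adjusted p = 0.0225). Without any other library the change lay between -0.76 and -0.99 and the adjusted p between 0.0987 and 0.196. The difference between the siRNA 28 pair and the siRNA 30 pairs had a limma adjusted p of 0.567, but with 1 pair for siRNA 28 this does not show that the siRNAs act alike.

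Over all regions tested, 3.39% were lower and 2.01% higher with NRF2 siRNA at an adjusted p under 0.05 (limma). With the replicate block the shares were 6.62% lower and 5.72% higher. Of 8562 regions at coding gene starts, 104 (1.21%) had a change at or below that of NQO1, as had 1620 (4.96%) of all regions.

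**Figure D1:**
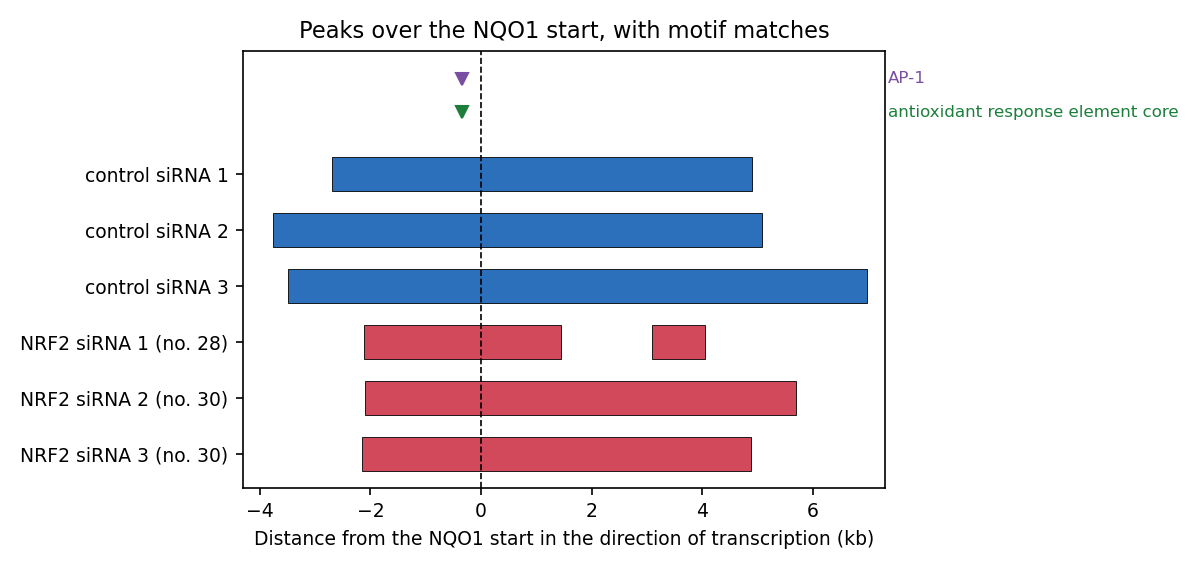
Extent of the peaks over the NQO1 start in each library. The x axis is distance from the start in kb in the direction of transcription, bars are peaks (blue, control siRNA; red, NRF2 siRNA), and triangles are the motif matches in the 1000 bp upstream of the start. The upstream ends of the 3 NRF2 siRNA peaks lie between 2090 and 2151 bp from the start, and those of the 3 control peaks between 2686 and 3760 bp.

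The extent of the peaks over the start was compared next. Their widths were 7584, 8846 and 10459 bp with control siRNA and 3559, 7786 and 7028 bp with NRF2 siRNA. NRF2 siRNA replicate 1 was the narrowest, and its start region was called as a pair of peaks with a gap of 1650 bp, so that 4503 bp were covered in all. The mean width was 8963 ± 1441 bp (SD, n = 3) against 6124 ± 2254 bp (SD, n = 3), and the groups overlapped (exact permutation p = 0.2, Benjamini-Hochberg adjusted p = 0.3 over 3 lengths). The width was smaller with NRF2 siRNA in each pair, with differences of -4025, -1060 and -3431 bp (exact paired permutation p = 0.25, the smallest for 3 pairs). The difference of the means was -2839 bp, and -1556 bp without NRF2 siRNA replicate 1. In its own list the peak was wider than 95.8, 96.4 and 96.5% of peaks with control siRNA and than 87.8, 95.8 and 93.1% with NRF2 siRNA. Covered bases in the start region gave the same exact permutation p of 0.2 (adjusted 0.3).

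The position of the upstream end was compared after the values were seen. The peak reached 2686, 3760 and 3490 bp upstream of the start with control siRNA and 2113, 2090 and 2151 bp with NRF2 siRNA. The 3 NRF2 siRNA ends lay close together and short of every control end. The means were 3312 ± 559 and 2118 ± 30.8 bp (SD, n = 3 each; exact permutation p = 0.1, the smallest possible). Downstream, the peak reached 4897, 5085 and 6968 bp with control siRNA and 1445, 5695 and 4876 bp with NRF2 siRNA, with overlapping groups (exact permutation p = 0.4).

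Base by base, 4480 bp of the region were covered in all 6 libraries. A stretch of 535 bp, chr16:69762723-69763257, was covered in all 3 control libraries and in 0 NRF2 siRNA libraries, 2152 to 2686 bp upstream of the start. In all, 2882 bp were covered in some control and no NRF2 siRNA library, and 0 bp in some NRF2 siRNA and no control library. The whole control lists also covered more in each pair, 64.7, 85.0 and 113 Mb against 46.3, 84.8 and 106 Mb with NRF2 siRNA. No share of other regions is given here for these base counts or for the upstream ends, so they are not shown to be particular to NQO1.

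**Figure D2:**
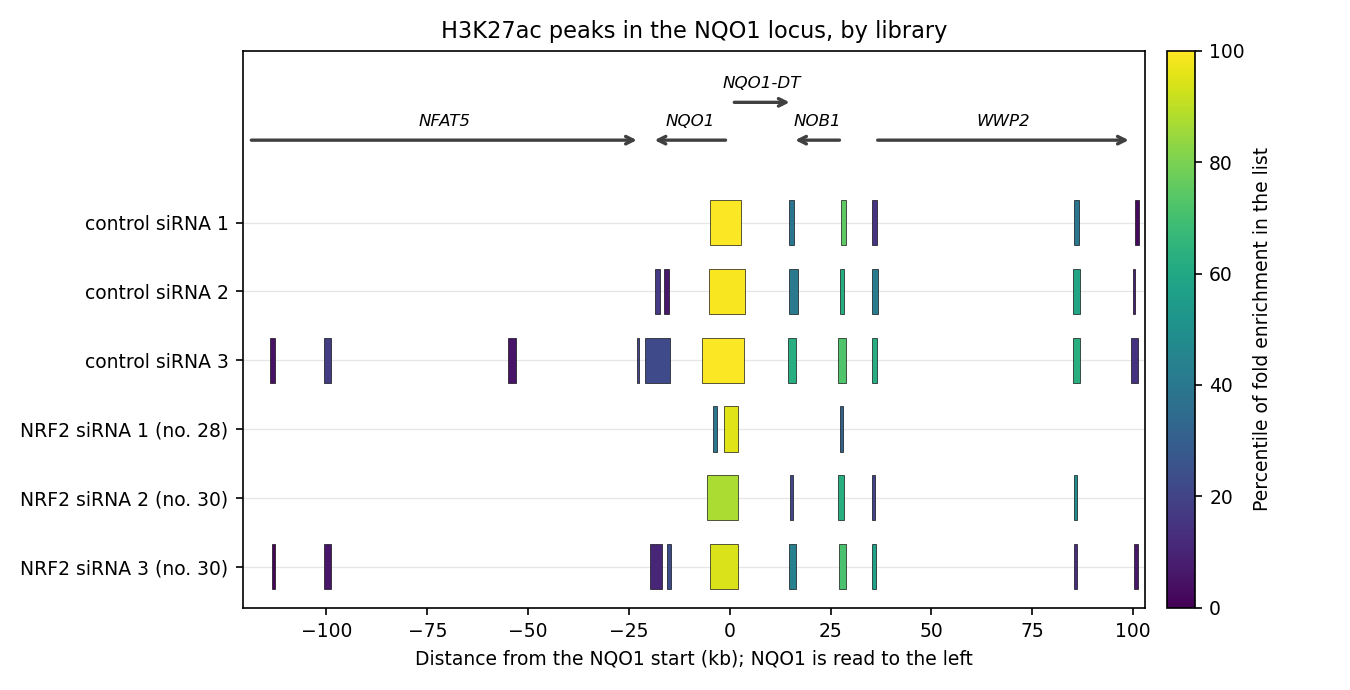
H3K27ac peaks in the NQO1 locus. The x axis is distance from the NQO1 start in kb, with NQO1 read to the left, each row is a library, and the colour is the percentile of the peak's fold enrichment in its own list. Arrows are genes, in their direction of transcription. The peak over the start is the strongest in each of the 6 rows, and control siRNA replicate 3 has the most peaks (11) and NRF2 siRNA replicate 1 the fewest (3).

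The remaining 10 regions were weaker, with 1 at the 3′ end of NQO1 and 9 over the neighbouring genes. Libraries had 5, 7 and 11 peaks in the window with control siRNA and 3, 5 and 9 with NRF2 siRNA. The number followed the length of the list within each group. Of the 11 regions, 2 were called in all 6 libraries, 3 in 5, 1 in 4, 1 in 3, 2 in 2 and 2 in 1. The covered length in the window was 12622, 17628 and 29498 bp with control siRNA and 5311, 11780 and 18663 bp with NRF2 siRNA. It was lower with NRF2 siRNA in each of the 3 pairs, as was the total length covered by the whole list. The groups overlapped (exact permutation p = 0.4, adjusted p = 0.4 over 3 lengths, and exact paired permutation p = 0.25). The difference of the means, -7998 bp, was -3207 bp without control siRNA replicate 3, -4695 bp without NRF2 siRNA replicate 1 and -4152 bp at a q-value of at most 1e-05. With lists cut to equal length it was -6083 bp and the groups did not overlap (exact permutation p = 0.1, the smallest possible). Without the start region the covered lengths were 5038, 8782 and 19039 bp against 808, 3994 and 11635 bp (exact permutation p = 0.4).

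Of the 11 regions, 7 were called in at least 3 libraries and entered the test, and all 7 changes were below 0, as were 48.5% over all regions tested. In 5 of them the score was lower with NRF2 siRNA in each of the 3 pairs, which held for 22.9% of all regions tested. At an adjusted p under 0.05 (limma) 0 of the 7 passed, 1 passed with the replicate block (the start region), and 3 had an unadjusted p under 0.05. The shares of all regions lower by these 3 rules were 3.39%, 6.62% and 10.7%. The median change of the 7 was -0.36, beside 0.02 over all regions tested. In 3 of the 7 every control score lay above every NRF2 siRNA score, which held for 13.6% of all regions tested.

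A region without a peak in a library takes the lowest score of that library, and this score depends on the length of the list. It was -1.09, -1.70 and -2.15 in the control lists and -0.84, -1.63 and -2.01 in the NRF2 siRNA lists. A missing peak in NRF2 siRNA replicate 1, where 40.1% of the tested regions had none, thus scored above the missing peaks of the 5 longer lists, and a region uncalled in both libraries of a pair still shows a difference.

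**Figure D3:**
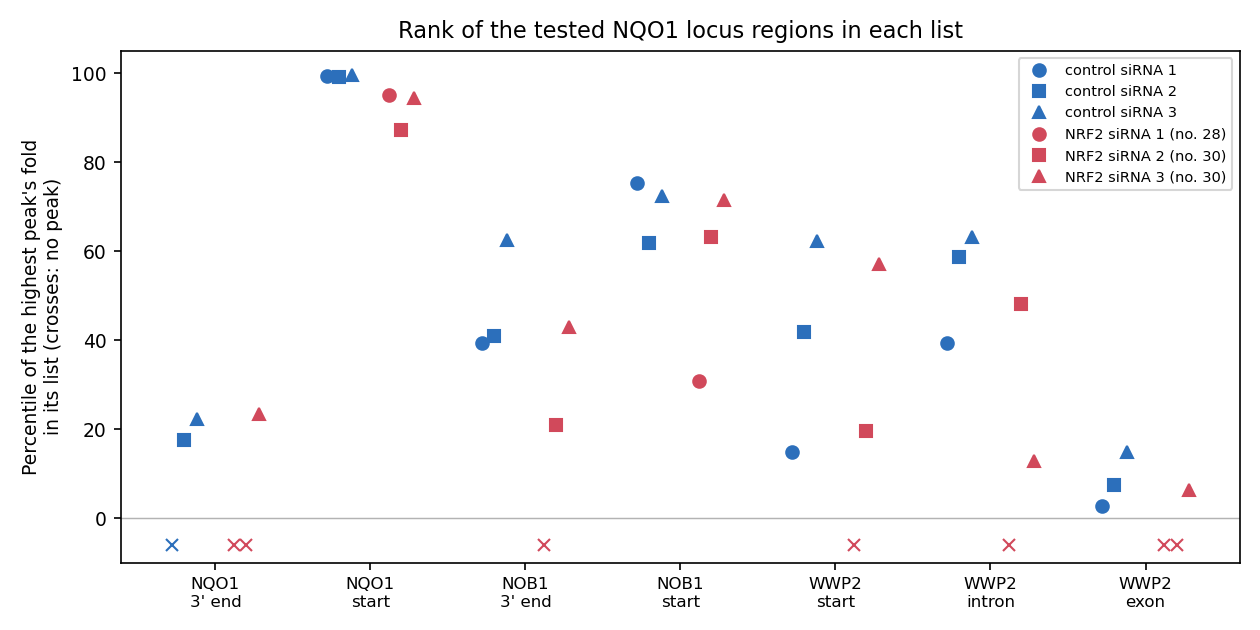
Percentile of the fold enrichment of the highest peak in its own list (y axis) for the 7 tested regions of the locus, ordered along the chromosome. Circles, squares and triangles are replicates 1, 2 and 3 (blue, control siRNA; red, NRF2 siRNA), and crosses below the line are libraries without a peak. The NQO1 start region stands at 99.1 or more in the control lists and at 95.1 or less in the NRF2 siRNA lists.

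Downstream of the NQO1 start, a region at the 3′ end of the gene (chr16:69739615-69746118) covered coding and UTR sequence and the start of the noncoding gene ENSG00000261602. It had peaks at percentiles 17.5 and 22.4 in control siRNA replicates 2 and 3 and at 23.3 in NRF2 siRNA replicate 3. It was thus called in 2 control libraries and 1 NRF2 siRNA library. Its change was -0.14 (limma adjusted p = 0.802) and turned to 0.10 without NRF2 siRNA replicate 2. The pair changes were 0.25, -0.81 and 0.14, the first of them between a pair of libraries without a peak.

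Upstream, the nearest region (chr16:69775075-69777464) lay 14.5 kb from the start, over the 3′ end of NOB1, which encodes a nuclease that matures 18S ribosomal RNA, and the last exon of NQO1-DT. Its percentiles were 39.4, 40.9 and 62.6 with control siRNA. With NRF2 siRNA it was not called in replicate 1 and stood at 21.0 and 43.0 in replicates 2 and 3. The percentile was lower in each pair with a peak in both libraries, and by score the groups did not overlap. Its change was -0.62 (SE 0.215, limma unadjusted p = 0.0176, adjusted p = 0.125, 0.0727 with the replicate block).

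The other region of this kind lay in an intron of WWP2, a ubiquitin ligase gene, 85.2 kb upstream of the NQO1 start (chr16:69845728-69847553). It stood at 39.3, 58.6 and 63.1 with control siRNA, was not called in NRF2 siRNA replicate 1, and stood at 48.0 and 12.9 in NRF2 siRNA replicates 2 and 3. Replicate 3 was the highest of the control libraries and the lower of the NRF2 siRNA libraries with a peak, and the pair changes in score were -0.90, -0.27 and -1.39. The mean change of -0.85 (SE 0.304, limma unadjusted p = 0.0205) was close to that of the NQO1 start but varied more between pairs, and its adjusted p was 0.135 (0.0624 with the replicate block).

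The starts of the neighbouring coding genes had smaller mean changes than the NQO1 start, a difference that is tested further below. The start of NOB1 (chr16:69787304-69789370), 28258 bp from that of NQO1, stood at 75.3, 61.9 and 72.3 with control siRNA and at 30.9, 63.2 and 71.4 with NRF2 siRNA. Only NRF2 siRNA replicate 1 was low, and its pair had a change of -0.71, against 0.03 and 0.04 in pairs 2 and 3 (mean change -0.21, limma adjusted p = 0.635). Within the siRNA 30 pairs the change was 0.03. The start of WWP2 (chr16:69795747-69797388) stood at 14.9, 41.8 and 62.2 with control siRNA, had no peak in NRF2 siRNA replicate 1, and stood at 19.5 and 57.2 in NRF2 siRNA replicates 2 and 3 (mean change -0.36, adjusted p = 0.482). NFAT5, a transcription factor gene of the osmotic stress response, reaches into the window with its 3′ part, and its start (chr16:69594848-69605465) lies outside. That start stood at 85.5, 94.7 and 97.1 with control siRNA and at 83.9, 94.7 and 96.2 with NRF2 siRNA, nearly pair for pair the same (mean change -0.02, adjusted p = 0.978).

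At the edge of the window, a weak region over a WWP2 exon (chr16:69860165-69862156) was called in 3 control libraries, at percentiles 2.7, 7.5 and 14.8, and in NRF2 siRNA replicate 3 at 6.3. Its change was -0.32 (limma adjusted p = 0.570). The 4 regions called in fewer than 3 libraries lay in or beside NFAT5 and were weak, at percentiles 1.5 to 20.7. All 4 had a peak in control siRNA replicate 3, the longest list, and 2 of them also in NRF2 siRNA replicate 3.

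**Figure D4:**
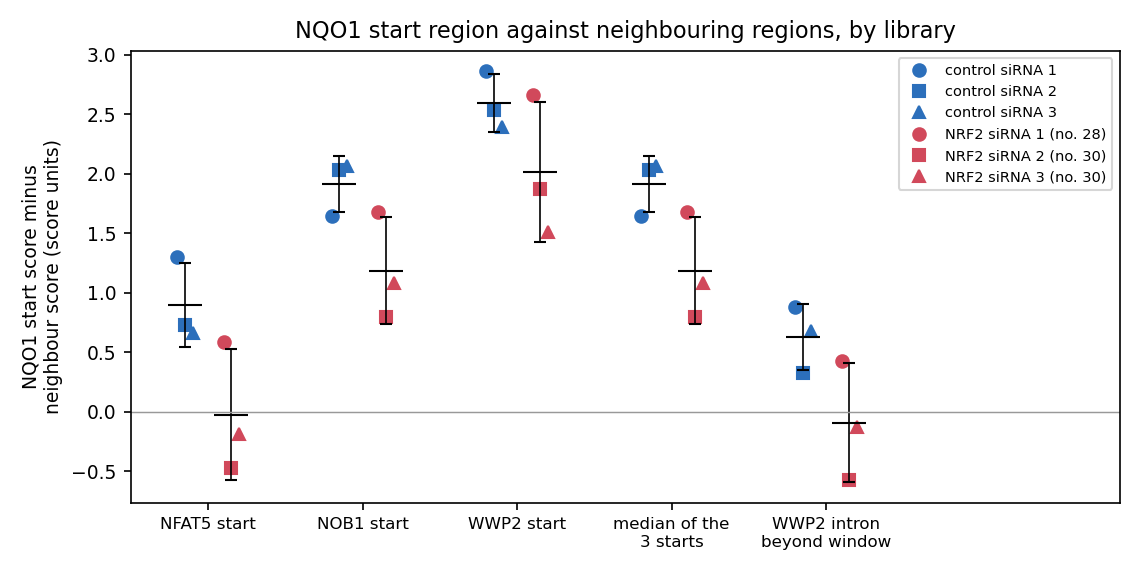
Score of the NQO1 start region minus the score of a neighbouring region in the same library (y axis, score units), for the starts of NFAT5, NOB1 and WWP2, their median, and a WWP2 intron region just beyond the window. The median is the NOB1 value in every library and adds no separate comparison. Circles, squares and triangles are replicates 1, 2 and 3 (blue, control siRNA; red, NRF2 siRNA), and bars are means ± SD (n = 3). Against the NFAT5 start, the control libraries lie between 0.66 and 1.31 and the NRF2 siRNA libraries between -0.47 and 0.59.

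Whether the NQO1 start differed more than its neighbours was tested on the difference of scores within each library. List length acts on both terms but need not act on them equally. Against the NFAT5 start, the NQO1 start scored higher by 1.31, 0.73 and 0.66 with control siRNA, and its difference was 0.59, -0.47 and -0.19 with NRF2 siRNA. The groups did not overlap, and the NQO1 start passed from above to below the NFAT5 start in replicates 2 and 3. The change of this difference was -0.92 (exact permutation p = 0.1). Against NOB1 the change was -0.73 (exact permutation p = 0.2), with 0.03 in pair 1, and against WWP2 it was -0.58 (exact permutation p = 0.3), with -0.20, -0.66 and -0.88 in pairs 1, 2 and 3. The WWP2 start had no peak in NRF2 siRNA replicate 1, so its pair 1 value rests on the lowest score of that list (-0.84). The value for WWP2 was -0.33 without NRF2 siRNA replicate 3 and -0.90 without NRF2 siRNA replicate 1, and that for NOB1 was -1.11 in the siRNA 30 pairs alone. None of the 3 passed, with a Benjamini-Hochberg adjusted exact permutation p of 0.3 for each, and no such test of 3 against 3 libraries can. Against a strong region in a WWP2 intron just beyond the window (chr16:69863119-69867996), chosen after the values were seen, the change was -0.72 (exact permutation p = 0.2). That region stood at 93.6, 97.8 and 97.0 with control siRNA and at 88.1, 95.7 and 95.7 with NRF2 siRNA.

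**Figure D5:**
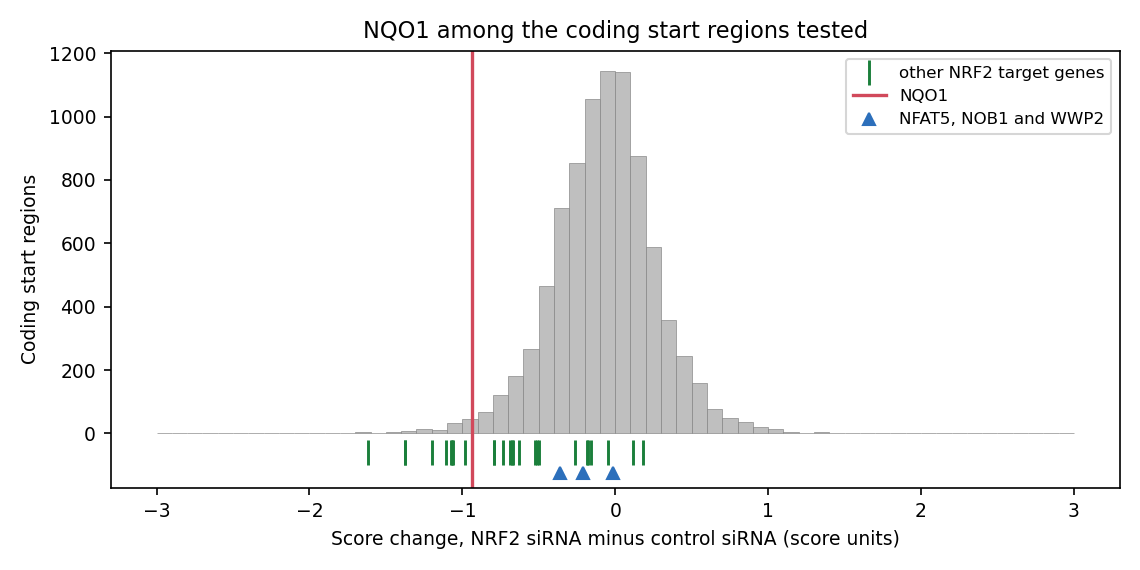
Score changes (x axis, NRF2 siRNA minus control siRNA, score units) of the 8562 tested regions at coding gene starts, as a histogram in steps of 0.1. The red line is NQO1 (-0.94), green ticks are 26 start regions of other NRF2 target genes, and blue triangles are NFAT5, NOB1 and WWP2. The NQO1 line and most green ticks lie left of the bulk of the histogram.

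Other genes that NRF2 is known to activate were taken as a list of 29, each by its most upstream coding start. They had 28 distinct start regions, of which 26 entered the test. Of these 26, 24 had a change below 0, 9 fell and 0 rose at an adjusted p under 0.05 (limma, 19 lower and 0 higher at an unadjusted p under 0.05). Over all coding start regions 58.3% had a change below 0, 0.853% were lower and 0.199% higher at the adjusted p, and 6.82% were lower and 2.65% higher at the unadjusted p. The median change was -0.68, beside -0.06 over all coding start regions, so that the change of -0.94 at NQO1 lay beyond the median of the list. With the replicate block 13 fell and 0 rose, beside 2.28% and 0.677% of coding start regions. Leaving out 1 library moved the count of lower regions over all regions tested from 1108 to between 0 and 1716. The count of 9 rested on several libraries too. It was 11 without NRF2 siRNA replicate 1, 5 without control siRNA replicate 1, 4 without NRF2 siRNA replicate 3, 1 when control siRNA replicate 3 or NRF2 siRNA replicate 2 was left out, and 0 when control siRNA replicate 2 was, although 17 had an unadjusted p under 0.05.

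The most upstream coding start of GCLC (chr6:53481768) changed by -1.37 (limma adjusted p = 0.0134), and other GCLC starts were not examined. GCLC encodes the catalytic subunit of the first enzyme of glutathione synthesis. TXN, thioredoxin, had the largest change of the list at -1.62 (adjusted p = 0.00677), and SRXN1, which repairs oxidised peroxiredoxins, changed by -1.06 (adjusted p = 0.0267). TALDO1, an enzyme of the pentose phosphate pathway, which supplies the NADPH that NQO1 uses, fell by 1.37 (adjusted p = 0.0121). Other list members of these pathways, named after their values were seen, did not pass. Among them were GCLM, the partner subunit of GCLC (-0.80, adjusted p = 0.0619), GSR, glutathione reductase (-0.16, 0.722), and GPX2, a glutathione peroxidase (-0.51, 0.171). Of the NADPH-linked pathways, PGD (-0.52, 0.170), TKT (-0.05, 0.928) and ME1 (-0.63, 0.114) did not pass. With the replicate block GCLM passed (limma adjusted p = 0.0366), and GSR, GPX2, PGD, TKT and ME1 did not.

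Among genes of detoxification and export, CBR1, a carbonyl and quinone reductase, changed by -1.08 (limma adjusted p = 0.0182). It stood at percentiles 94.9, 93.9 and 96.1 with control siRNA and at 57.8, 70.2 and 75.9 with NRF2 siRNA. Its paralogue CBR3 was called only in control siRNA replicates 2 and 3, at 12.8 and 26.6, and did not enter the test. EPHX1, an epoxide hydrolase, fell by 0.98 (adjusted p = 0.0325), and ABCC2, an exporter of conjugates, changed by -1.11 (adjusted p = 0.0318). AKR1C1, an aldo-keto reductase whose near-identical paralogues can share reads with it, so that its value is uncertain, changed by -1.20 (adjusted p = 0.0146). It had no peak in NRF2 siRNA replicate 1, where its score was the lowest of that list (-0.84). AKR1B10 and ABCC3 had changes above 0, of 0.18 and 0.12, that did not pass (adjusted p = 0.636 and 0.780). NQO2, the paralogue of NQO1, stood at 90.1, 91.8 and 96.9 with control siRNA and at 85.0, 91.6 and 93.9 with NRF2 siRNA, a change of -0.15 (adjusted p = 0.731).

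Of 8 reference genes used in most cells, 0 passed in either direction (limma, 1 lower and 0 higher at an unadjusted p under 0.05), with a median change of -0.13. With the replicate block the most upstream coding start of ACTB, the gene of beta-actin, fell by 1.41 (limma adjusted p = 0.0154, 0.130 without the block). This start (chr7:5603533) had no peak in NRF2 siRNA replicate 2, and other ACTB starts were not examined. KEAP1, the repressor of NRF2, had a change of -0.57 (adjusted p = 0.231).

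Among the coding start regions most like that of NQO1, by the root mean square difference of the 6 scores among regions called in all 6 libraries, were those of FTH1, the ferritin heavy chain (0.259), TXNRD1, thioredoxin reductase 1 (0.285), and CHML (0.286). FTH1 stood at percentiles 97.3, 98.6 and 99.4 with control siRNA and at 92.3, 92.7 and 94.9 with NRF2 siRNA. TXNRD1 stood at 99.5, 99.2 and 99.5 with control siRNA and at 96.4, 96.2 and 96.5 with NRF2 siRNA. Their changes of -0.67 each did not pass (limma adjusted p = 0.0931 and 0.0833). With the replicate block TXNRD1 passed (limma adjusted p = 0.0482) and FTH1 did not (0.0614). The likeness to NQO1 by which these starts were chosen fixes the order of their groups. FTH1 and TXNRD1 were also in the list of NRF2 targets.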

How the data were processed

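H3K27ac peaks were analysed in 6 A549 libraries, 3 per group, grouped by the condition in the labels. Per the paper and the submitters' processing notes, the authors trimmed reads with cutadapt 1.15, aligned them to hg19 with Bowtie2 2.2.6, removed reads with a low mapping quality (SAMtools), ran MACS2 2.1.0.20151222 on every library separately for broad peaks and removed blacklisted peaks. The deposited lists give an integer score, the fold enrichment over background (a ratio) and the p-value and q-value as −log10. They hold no read counts, so no counting interval is given. The study lists read totals for each library, lower for replicate 1 of both groups than for replicates 2 and 3, and these totals were not used here. Which input served as background is not given in the sources used here.

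Peaks were merged where they overlapped by 1 bp or more. Region scores (normal scores of the rank of the highest fold in regions called in at least 3 libraries) were compared with limma 3.58.1 in R 4.3.3 (Benjamini-Hochberg over 32673 regions, threshold 0.05), which was tested on simulated data. Per-library values were compared by two-sided exact permutation tests. A gene start is the 5′ end of the most upstream coding transcript in GENCODE 44 lifted to GRCh37, matched to a region within 1 kb. Other starts of the same gene were not scored, so a value may not describe the promoter in use. Motifs were searched in a GRCh37 sequence. Of 34 sequence names with peaks, 24 were found in it, and 0 of these had a peak past the end. Peaks on the other names were kept in the ranks.

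Named were all locus regions, the starts of coding genes in the window, NRF2 target genes past the threshold, CBR1, CBR3, NQO2, reference and marker genes, and the 5 genes most like NQO1. Some items under this rule are not reported here. Members and lists were chosen with earlier results of these data known. The upstream and downstream extents, the covered length without the start region and the WWP2 intron region beyond the window were added after the values were seen.

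Libraries share replicate numbers in their titles. Deviations from the group means correlated between libraries of the same number (r = 0.398, 0.199 and 0.363). No correlation between different numbers is given here, and list length also rises with the number in both groups. The numbers were taken as pairs, and an alternative fit held the replicate as a block. Peak names of replicate 1 lack the flow cell identifier of replicates 2 and 3, and only replicate 1 used siRNA 28. The batch therefore cannot be told apart from the siRNA. The study describes independent experiments, and p-values cover only the spread between these libraries. Alternatives were equal list lengths (23885 peaks), a stricter q-value (1e-05), other merging, filters and rank measures, other windows, the siRNA 30 pairs alone and leaving out each library.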

Additional observations from a re-analysis of the deposited data

Results flagged for a closer look

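The NOB1 start region, the neighbour upstream of NQO1, had a change of -0.71 score units in the siRNA 28 pair and of 0.03 and 0.04 in the siRNA 30 pairs. It stood out because the sign differed between the siRNAs, although the values of the siRNA 30 pairs were near 0. In limma the difference between the siRNAs had an unadjusted p of 0.0516 and an adjusted p of 0.329, so it did not pass the threshold, and with 1 pair for siRNA 28 it cannot be told apart from the batch.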

How the results depend on the processing

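The change at the NQO1 start kept its sign in all 17 alternatives, and its limma adjusted p ran from 0.00848 to 0.196, under 0.05 in 8. It was -0.94 with the replicate block (adjusted p = 0.0223) and with a mean-variance trend and robust fit (0.00848), -1.001 with equal list lengths (0.0319) and with those and the replicate block (0.0158), -1.06 by length-weighted mean fold (0.0287), -0.95 ranked by −log10 p (0.0426), -1.07 in the siRNA 30 pairs (0.0281) and -1.11 without NRF2 siRNA replicate 1 (0.0225). Leaving out 1 library gave -1.11 to -0.76.

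When the replicate block was joined with equal list lengths, 2 more locus regions were called lower, at the NOB1 3′ end (-0.75, adjusted p = 0.0296) and in the WWP2 intron 85.2 kb away (-0.84, 0.0440). The NQO1 3′ end region changed sign without NRF2 siRNA replicate 2 (0.10; -0.29 to 0.10 leaving out 1 library), as did the NOB1 start in the siRNA 30 pairs (0.035). For both the cause was not tested.

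Over all regions, 1108 were lower and 657 higher. The counts became 2164 and 1868 with the replicate block, 2041 and 2151 with block and equal lengths, 451 and 263 at a q-value of at most 1e-05, 369 and 341 among regions called in all 6 libraries, and 1975 and 1719 in the siRNA 30 pairs. Lower and higher regions were 1321 and 1185 with equal lengths, 1125 and 427 with no region filter, and 1499 and 1175 with the trend. Leaving out 1 library gave 0 to 1716 lower and 0 to 882 higher, with 0 in each direction without control siRNA replicate 2 (2957 lower and 3076 higher at an unadjusted p under 0.05).

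Of the 26 NRF2 target starts, 16 were lower with block and equal lengths and 16 with the trend, and 0 to 11 leaving out 1 library. Over all regions the lower counts at these settings were 2041, 1499 and 0 to 1716, beside 1108 in the main fit. Shares of coding start regions at these settings are not given here. The median change of the NRF2 target starts was -0.80 with equal lengths (with or without the block) and -0.86 at the stricter q-value. It was -0.82 by length-weighted fold and -0.83 in regions called in all 6 libraries. Leaving out 1 library gave -0.75 to -0.62. Beyond those named, the replicate block changed no call at the locus.

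The lists hold only peaks past the caller's threshold and no read counts, so a missing peak is not evidence of absent acetylation.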
